A study of Homo sapiens with 16 samples.

Results

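Long intergenic noncoding RNA (LINC) genes were examined at the 2000 bp windows that surround their annotated transcription start sites (TSSs). The windows were chosen by name. A distinct autosomal window was taken where its gene symbol was LINC followed by digits, which gave 10217 windows of 2193 gene symbols among 210609 distinct autosomal windows (4.85%). The remaining 200392 autosomal windows served as the comparison. ChIP-seq for dimethylated lysine 9 of histone H3 (H3K9me2) had been performed in BJ-5ta, a human fibroblast cell line that telomerase has made immortal. The labels name the antibody only as H3, and the design text and methods name H3K9me2.

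Wild-type (WT) cells were compared with ΔLEO1 cells, a single CRISPR/Cas9 knockout clone, so that clone and genotype cannot be told apart. LEO1 is a subunit of the PAF1 complex, which travels with RNA polymerase II. Cells of each genotype came from 10% serum, in which they proliferate, or from 10 days in 0.1% serum, a quiescence treatment. Each of the 4 combinations had a ChIP library and an input library for each of the replicates A and B. Input is the same sonicated chromatin without the antibody step. Nothing in the labels says that A and B were separate cultures, so p-values measure the spread between libraries, which may be technical.

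LINC genes are transcribed by RNA polymerase II outside protein-coding genes, are often spliced, and are typically expressed at low levels in only a few tissues. H3K9me2 is written mainly by the methyltransferases G9a and GLP and covers broad domains of silent, gene-poor chromatin. It is usually low at CpG-island promoters of active genes. A start window of a LINC gene can therefore lie in a silent domain or next to an active promoter, and the counts were used to see which LINC starts fell on which side.

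Of the LINC windows, 8524 overlapped no window of another kind and 1693 (16.6%) did. Many LINC windows overlap each other, because alternative transcripts of a gene start close together. The 10217 windows merged into 3648 separate stretches, and a gene had a median of 2 windows. LINC00511, a gene described in tumours, had the most with 84, while 799 genes had 1 window. The nearest start of another kind lay at a median distance of 17364 bp. Within 500 kb, LINC windows had a median of 72 neighbouring windows and the other windows had 117. Of the symbols, 2109 were listed by RefSeq, 2106 of them as long noncoding RNA. A further 42 were listed as older names, 3 of which now belong to protein-coding genes, and 42 were in neither list.

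Promoter sequences show what differs at LINC starts in base composition. RefSeq sequences of 300 bases (250 before the start and 50 after it, build GRCh38.p14, the same primary assembly as the hg38 named in the submitters' notes) could be matched to 1434 LINC windows. The following LINC promoters are shown 5′ to 3′ with every CG dinucleotide in capitals. The first 3 belong to starts with the largest ChIP excess over input, the next 3 to starts with the largest ChIP deficit, and the last 2 to starts that were lower in ΔLEO1 than in wild type in 0.1% serum. Only genes whose listed start lay within 50 bp of the middle of the window were considered. They lie at chr5:3536045-3536344 (LINC01019, minus strand), chr16:35746302-35746601 (LINC02167, plus), chr6:167679174-167679473 (LINC02538, minus), chr7:130913214-130913513 (LINC00513, plus), chr10:118241255-118241554 (LINC02944, plus), chr22:46541245-46541544 (LINC02925, plus), chr3:156817013-156817312 (LINC00886, minus) and chr2:129922927-129923226 (LINC01856, plus).
LINC01019: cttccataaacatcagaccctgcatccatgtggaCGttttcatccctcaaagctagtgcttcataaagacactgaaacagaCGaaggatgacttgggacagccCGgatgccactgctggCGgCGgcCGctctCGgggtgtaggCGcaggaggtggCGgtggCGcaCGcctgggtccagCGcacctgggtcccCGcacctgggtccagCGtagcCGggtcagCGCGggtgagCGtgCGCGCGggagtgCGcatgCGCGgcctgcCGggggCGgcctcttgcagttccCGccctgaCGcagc
LINC02167: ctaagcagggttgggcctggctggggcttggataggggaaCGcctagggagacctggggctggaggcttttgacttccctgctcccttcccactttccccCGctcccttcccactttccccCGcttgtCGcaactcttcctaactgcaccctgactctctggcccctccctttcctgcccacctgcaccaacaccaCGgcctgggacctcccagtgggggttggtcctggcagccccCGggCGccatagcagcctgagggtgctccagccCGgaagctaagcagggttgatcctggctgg
LINC02538: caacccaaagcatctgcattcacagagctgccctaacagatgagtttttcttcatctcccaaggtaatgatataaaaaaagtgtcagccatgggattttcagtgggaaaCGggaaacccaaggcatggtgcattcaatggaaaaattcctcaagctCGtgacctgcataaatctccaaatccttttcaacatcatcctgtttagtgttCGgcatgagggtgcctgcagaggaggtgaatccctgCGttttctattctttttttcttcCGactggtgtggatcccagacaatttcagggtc
LINC00513: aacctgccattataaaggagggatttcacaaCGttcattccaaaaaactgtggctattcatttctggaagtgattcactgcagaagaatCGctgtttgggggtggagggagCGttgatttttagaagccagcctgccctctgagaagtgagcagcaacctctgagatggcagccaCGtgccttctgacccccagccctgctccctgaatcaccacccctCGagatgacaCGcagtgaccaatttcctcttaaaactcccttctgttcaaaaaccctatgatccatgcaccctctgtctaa
LINC02944: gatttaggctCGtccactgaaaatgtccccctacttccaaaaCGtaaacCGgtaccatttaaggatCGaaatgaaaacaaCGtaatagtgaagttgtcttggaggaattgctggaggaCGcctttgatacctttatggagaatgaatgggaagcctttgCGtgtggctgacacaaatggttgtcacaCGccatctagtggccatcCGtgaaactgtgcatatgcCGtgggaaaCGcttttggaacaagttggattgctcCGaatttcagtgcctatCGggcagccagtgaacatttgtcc
LINC02925: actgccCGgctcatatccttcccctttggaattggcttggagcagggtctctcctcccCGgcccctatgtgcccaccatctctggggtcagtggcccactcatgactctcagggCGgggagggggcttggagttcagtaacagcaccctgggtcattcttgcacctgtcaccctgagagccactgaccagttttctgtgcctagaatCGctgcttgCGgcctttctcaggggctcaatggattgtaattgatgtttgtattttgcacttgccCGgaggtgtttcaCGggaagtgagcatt
LINC00886: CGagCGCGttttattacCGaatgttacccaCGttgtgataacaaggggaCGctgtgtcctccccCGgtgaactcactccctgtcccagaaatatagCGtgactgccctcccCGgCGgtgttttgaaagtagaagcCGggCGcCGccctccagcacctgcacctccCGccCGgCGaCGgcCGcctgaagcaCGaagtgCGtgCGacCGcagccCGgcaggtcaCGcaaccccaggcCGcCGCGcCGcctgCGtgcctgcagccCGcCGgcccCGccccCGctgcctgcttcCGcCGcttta
LINC01856: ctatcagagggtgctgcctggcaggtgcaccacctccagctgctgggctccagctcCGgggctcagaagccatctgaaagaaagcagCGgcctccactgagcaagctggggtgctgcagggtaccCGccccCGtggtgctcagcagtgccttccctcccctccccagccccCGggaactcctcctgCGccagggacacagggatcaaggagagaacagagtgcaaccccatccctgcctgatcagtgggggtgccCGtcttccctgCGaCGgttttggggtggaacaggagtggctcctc

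The 8 promoters covered a wide range of composition. LINC00886 held 35 CG dinucleotides and LINC01019 held 28, whereas LINC02538 held 5 and LINC00513 held 6. The other promoters shown held between 7 (LINC02925) and 13 (LINC02944). The GC content ranged from 44.7% in LINC02538 to 67.7% in LINC00886. Across the 1434 LINC promoters the median GC content was 48.0% and the median number of CG dinucleotides was 4. Across 21764 promoters matched to windows of other genes, the medians were 62.7% and 21. Only 17.5% of LINC promoters held 15 or more CG dinucleotides, compared with 62.9% of the others and 48.9% of all 35116 promoters in the RefSeq table. The letters TATAAA, searched on both strands, stood in 15.97% of LINC promoters, in 9.36% of the others and in 11.5% of all promoters in the table. LINC02538 and LINC00513 contained them, although their starts lay on opposite sides of input.

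Facts of the whole series were checked first. Over distinct autosomal windows, the 7 ChIP libraries used held between 1854606 and 3200429 reads and the 8 inputs between 2700380 and 7681914. Replicate A of ΔLEO1 ChIP in 10% serum had 50 reads in total over distinct windows, of which 1 fell at a LINC start, and was left out. ΔLEO1 in 10% serum was therefore represented by 1 ChIP library. The inputs at the LEO1 start on chromosome 15 (51970778 to 51972778) ranged from 3.41 to 5.93 CPM (reads per 1000000 reads of the library over autosomal windows) in ΔLEO1 and from 4.55 to 6.90 CPM in wild type, so the window was not lost and does not check the genotype labels. Reads over peak regions, as a percentage of reads over windows, were 13.2% and 14.2% in wild-type ChIP in 10% serum, 11.9% in ΔLEO1 in 10% serum, 12.3% and 12.5% in wild type in 0.1% serum, and 9.91% and 10.3% in ΔLEO1 in 0.1% serum. The inputs gave between 2.88% and 3.91%.

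LINC windows were richer in H3K9me2 ChIP reads than other start windows, and this was not seen in input. The level of the LINC windows is given as a ratio, the mean CPM over LINC windows divided by the mean CPM over all other autosomal windows of the same library. In wild type it was 1.66 and 1.66 in 10% serum and 1.60 and 1.59 in 0.1% serum. In ΔLEO1 it was 1.59 in 10% serum and 1.53 and 1.54 in 0.1% serum. Every ChIP library thus lay above 1.5, and ChIP and input did not overlap. The inputs gave 0.940 and 0.891 (wild type, 10% serum), 1.01 and 0.923 (ΔLEO1, 10% serum), 1.03 and 1.01 (wild type, 0.1% serum) and 0.976 and 0.943 (ΔLEO1, 0.1% serum).

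**Figure D1:**
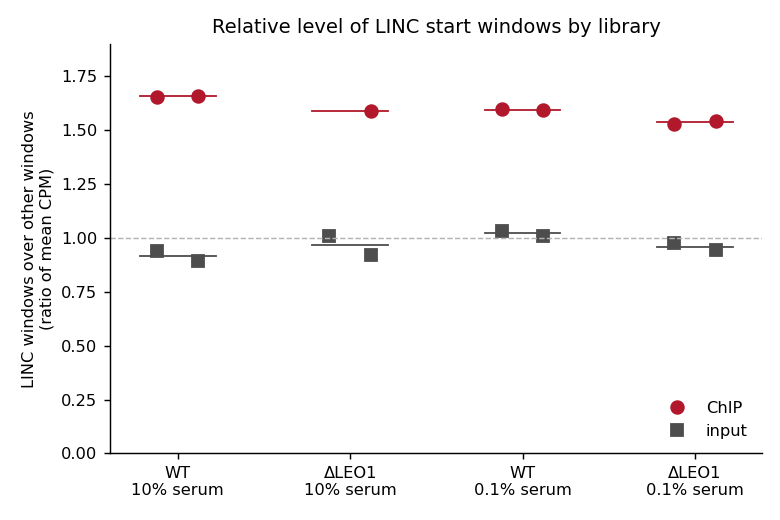
Ratio of the mean CPM of LINC windows to that of all other autosomal windows (y axis) in each library, by genotype and serum (x axis), with circles for ChIP, squares for input, left for replicate A, right for B, and short lines for group means. The 7 ChIP libraries sat between 1.53 and 1.66, and the 8 inputs between 0.891 and 1.03.

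The mean ratio was 1.60 ± 0.0491 (SD, n = 7) in ChIP and 0.966 ± 0.0494 (SD, n = 8) in input, a 1.65-fold difference. Permuting the libraries exactly (two-sided) returned p = 0.000311, the smallest value these numbers of libraries allow (Benjamini-Hochberg adjusted p = 0.00155 over the 5 comparisons of the ratio). All 7 ChIP libraries lay above the input of the same label, between 1.54-fold and 1.86-fold. The size of the excess depended on what the LINC windows were weighed against. It was 2.05-fold for the median window, 1.42-fold when the other windows were weighted to the same density of neighbouring starts, and 1.25-fold with 1 value per gene.

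The typical LINC start carried 7.69 ChIP CPM and 4.74 input CPM (medians over windows of the mean over libraries). The typical other start carried 3.89 and 4.98 CPM. ChIP exceeded input in CPM at 78.4% of LINC windows and at 42.5% of the others. Per library, a LINC window held a median of between 13 and 23 ChIP reads, and between 307 and 382 of the windows had no ChIP read. In input, between 270 and 289 windows had no read. A difference at a single window must therefore be large to be detected.

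LINC windows were the highest of the kinds in ChIP. Windows of genes without a symbol, of microRNA genes and of antisense genes also lay above 1 and above their inputs. Whether the genes without a symbol are noncoding cannot be read from the labels. In ChIP the ratio was 1.38 ± 0.0193 for windows of genes without a symbol, 1.18 ± 0.0124 for microRNA genes, 1.07 ± 0.0134 for genes named as antisense, and 0.927 ± 0.00363 for all other symbols (SD, n = 7, each against all windows that are not LINC). In input the same kinds gave 0.936, 0.949, 1.02 and 1.01 on average. LINC windows lay above each of these kinds in 7 of 7 ChIP libraries (two-sided exact sign-flip permutation test, p = 0.0156 each, the smallest value that 7 libraries allow). The nearest kind was the windows without a symbol. LINC windows exceeded them 1.16-fold in ChIP (from 1.13 to 1.19) and 1.03-fold in input (from 1.02 to 1.06).

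**Figure D2:**
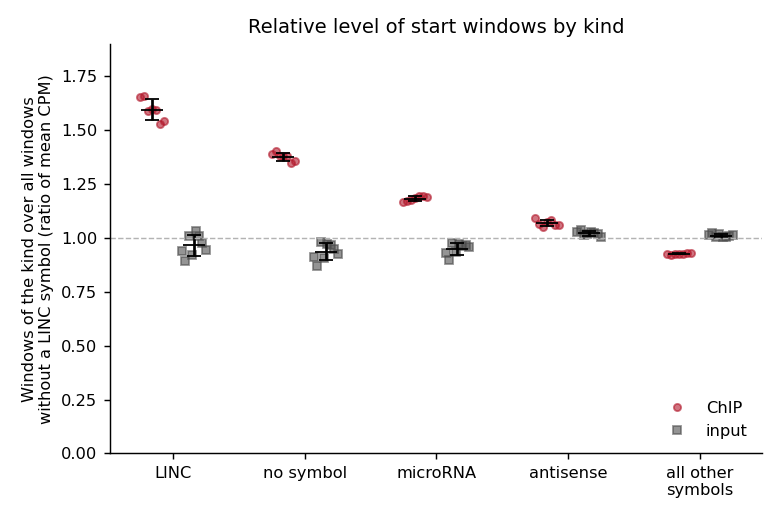
Ratio of the mean CPM of windows of 5 kinds of gene to that of all autosomal windows without a LINC symbol (y axis), with a point for each library (7 ChIP, 8 input), the mean as a bar and the SD as whiskers. LINC windows were highest in ChIP at 1.60, and all kinds lay near 1 in input.

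LINC starts that stood alone carried more ChIP signal than those next to other genes. The ratio was 1.64 ± 0.0501 for LINC windows that overlapped no window of another kind and 1.35 ± 0.0499 for those that did (SD, n = 7), higher in 7 of 7 libraries (exact sign-flip permutation test, p = 0.0156, again the smallest possible). In input the 2 classes gave 0.965 ± 0.0556 and 0.968 ± 0.0205 (SD, n = 8).

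The ChIP level also differed with the density of other starts. Of the LINC windows, 25.8% fell in the density class with the fewest neighbours (43 or fewer within 500 kb) and 1.33% in that with the most (312 or more), of 10 classes of about equal size. From the sparsest to the densest class, the ChIP ratio of LINC windows went from 1.86 ± 0.117 to 0.798 ± 0.0599, and that of other windows from 1.496 ± 0.0778 to 0.608 ± 0.0118 (SD, n = 7). Within a class, LINC windows lay between 1.09-fold and 1.60-fold above other windows on average. They did so in all 7 ChIP libraries in every class except that of 174 to 227 neighbours, where the ratio of the 459 LINC windows ranged from 0.994 to 1.20.

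All 22 autosomes showed the excess in all 7 ChIP libraries. Within a chromosome, LINC windows exceeded the other windows most on chromosome 17 (1.92 ± 0.0874, 65 LINC genes) and chromosome 16 (1.896 ± 0.107, 74 genes). They exceeded them least on chromosome 9 (1.38 ± 0.0819, 52 genes) and chromosome 18 (1.38 ± 0.0361, 65 genes). The input ratios of these chromosomes lay between 1.01 and 1.07, with 1.04 on chromosome 16.

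ChIP levels were lower at starts with GC-rich promoters, in LINC and other genes alike. Windows with a promoter sequence were split into 10 groups of rising GC content, with levels given relative to all non-LINC windows that had one. LINC windows kept a ratio of between 1.89 and 2.02 in the lower 3 groups and fell to 0.827 ± 0.0970 in the highest (SD, n = 7). Other windows went from 1.49 to 0.653 ± 0.0574. The comparison of both within a group gave between 1.26-fold and 1.88-fold more in LINC windows, above 1 in every ChIP library. The upper groups rest on few LINC windows, with 22 and 20 in the last 2. In input the comparison gave 1.03-fold in the lowest group and 0.783-fold in the highest, so GC-rich LINC starts held fewer input reads than other starts of like GC content. With the other genes weighted to the GC content of LINC promoters, ChIP exceeded input 1.47-fold, in place of 1.92-fold for the same genes unweighted.

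**Figure D3:**
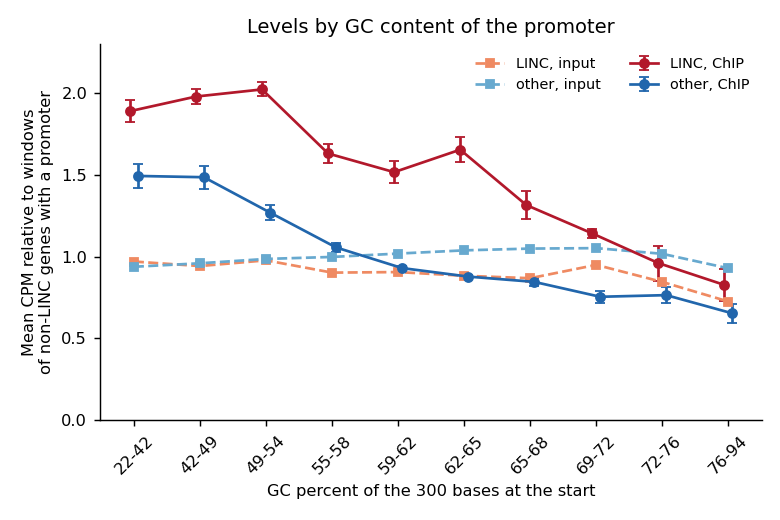
Mean CPM of LINC windows and of other windows in 10 groups by the GC percent of their promoter (x axis), relative to all non-LINC windows with a promoter sequence (y axis), with lines for the mean of 7 ChIP or 8 input libraries and whiskers for the SD of ChIP. LINC windows lay above other windows in ChIP in every group, and both were lowest in the group of highest GC.

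Window by window, most LINC starts were above input. edgeR tested 9853 of the 10217 LINC windows, the others having a mean of fewer than 5 reads. Of these, 7068 (71.7%) were higher in ChIP than in input and 997 (10.1%) were lower at an adjusted p-value under 0.05, with 1788 not called. Of all 207004 windows tested, 36.3% were higher and 38.6% lower, 75.0% in all. The median log2 fold was 0.84 for LINC windows and -0.04 for all windows. Scaling by library totals alone moved these medians to 0.72 and -0.15, and the size factors of DESeq2 moved them to 0.74 and -0.21, so the distance between LINC and all windows stayed between 0.87 and 0.95.

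**Figure D4:**
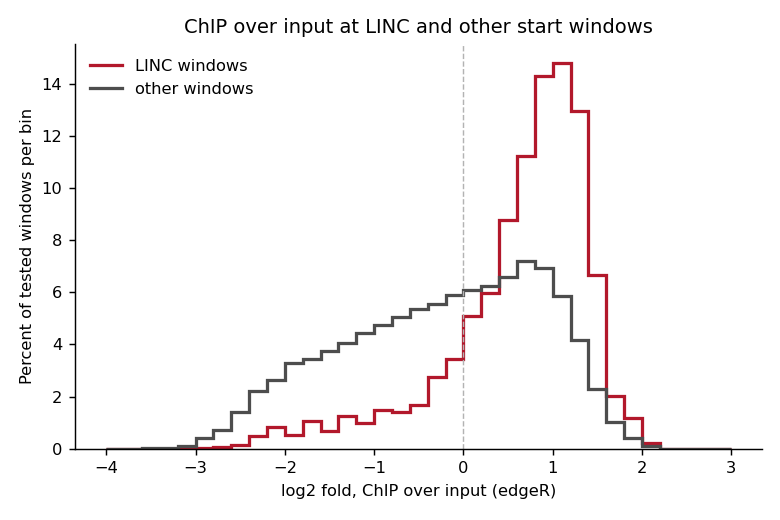
Distribution of the log2 fold of ChIP over input from edgeR (x axis) for 9853 LINC windows and 190328 other autosomal windows, as the percentage of windows in each bin of 0.2 (y axis). LINC windows piled up near 1 with a tail below 0, whereas other windows spread widely around a median of -0.10.

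Counted by gene, 1650 of 2105 LINC genes with a tested window had at least 1 window above input and 291 had at least 1 below. For 1320 genes every tested window was above input, and for 139 every one was below. In 95 genes some windows were above and others below. LINC00882 on chromosome 3 was such a gene, with 11 windows above, 27 below and 9 not called, and log2 folds from -2.03 to 1.62. At LINC00511 on chromosome 17, 55 of 84 windows were above and 4 below (from -0.75 to 1.25). LINC00343 on chromosome 13 had all 58 windows above (from 0.63 to 1.41), and LINC01206 on chromosome 3, near the SOX2 region, all 48 (from 0.90 to 1.68). Windows of a gene share reads where they overlap, so these counts are not independent measurements. A gene with more windows also has more occasions for a call. No such count was made for other genes, so the counts by gene do not show whether LINC genes differ from them.

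The LINC windows below input differed from those above in ways that the counts did not use. Of the 997 below, 34.9% overlapped a window of another kind, compared with 11.98% of the 7068 above and 22.99% of those not called. The nearest start of another kind lay at a median of 6923 bp for the windows below and 22459 bp for those above. Their median number of neighbours within 500 kb was 104 and 62. Where a promoter sequence was known, the median number of CG dinucleotides was 11 below input (166 promoters) and 3 above (927 promoters), with 40.4% and 11.5% of promoters holding 15 or more.

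Grouped by promoter, 77.1% of 773 LINC starts with 4 or fewer CG dinucleotides were above input and 5.30% below. Of 230 starts with 15 or more, 46.5% were above and 29.1% below. Other genes with 15 or more CG dinucleotides were above input in 14.01% and below in 66.5% of 13260 cases. CpG-rich LINC starts were therefore more often above input than CpG-rich starts of other genes, a comparison given without a test.

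Named by the size of the fold were LINC02564, LINC00342, LINC01242, LINC01194, LINC01580, LINC01230, LINC01579 and LINC01019, with log2 folds from 2.18 ± 0.24 to 2.02 ± 0.15 (SE) and edgeR adjusted p-values of at most 1.93e-16. All of them overlapped a deposited peak region, beside 4.23% of all LINC windows above input. The peaks were called on ChIP reads, so this overlap is a description and no separate evidence. LINC02564 lies at the very end of chromosome 18 (10125 to 12125), where it gave from 5.31 to 12.2 ChIP CPM with a median of 7.74, and from 0.853 to 2.96 input CPM with a median of 1.29. LINC00342 on chromosome 2 (95832963 to 95834963), 21414 bp from a start of ANKRD36C, had from 16.3 to 24.9 ChIP CPM (median 19.3) and from 2.96 to 6.09 input CPM (median 4.70). In none of these genes did a ChIP library reach down to an input library, which the choice by the largest called folds makes likely. Chromosome ends and the ANKRD36 gene family have near-identical copies elsewhere in the genome, and how reads with several matches were counted is not given in the sources used here, so the levels of LINC02564 and LINC00342 are uncertain.

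LINC01019, whose CpG-rich promoter is printed above, lies on chromosome 5 (3535094 to 3537094) 59738 bp from a start of IRX1, a homeobox transcription factor gene. It gave from 10.0 to 23.6 ChIP CPM (median 12.9) and from 1.85 to 4.69 input CPM (median 3.77). LINC01580 and LINC01579 on chromosome 15 have windows that overlap, and their values (medians of 13.95 and 14.7 ChIP CPM) come largely from the same reads. LINC01230, listed by RefSeq as LINC-ADAIN, lies 4233 bp from a start of DMRT2, a developmental transcription factor gene, and gave a median of 14.3 ChIP CPM against 3.95 in input.

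The highest ChIP levels of all LINC windows were those of LINC00342 (20.4 ± 3.17 CPM), LINC00960 (17.7 ± 3.24), LINC02612 (17.1 ± 2.15), LINC02610 (16.8 ± 2.94) and LINC02583 (16.8 ± 2.26) (SD, n = 7). The ranges over libraries of all 5 overlapped, so their order is not resolved. The highest input levels were those of LINC01410 in the pericentromeric region of chromosome 9 (13.0 CPM), LINC02235 (7.35), LINC01311 (7.06), LINC01618 (7.06) and LINC01376 (6.97). Of these, LINC01410, LINC02235, LINC01618 and LINC01376 were not called in either direction, and LINC01311 was below input (log2 fold -2.25 ± 0.25, edgeR adjusted p = 3.29e-16).

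The largest deficits of ChIP against input, by the size of the fold, were those of LINC01004 (log2 fold -2.93 ± 0.27), LINC01135 (-2.88 ± 0.28), LINC00963 (-2.74 ± 0.28), LINC02939 (-2.74 ± 0.29), LINC00513 (-2.68 ± 0.27) and LINC01990 (-2.64 ± 0.30) (SE, edgeR adjusted p-values of at most 1.73e-15). LINC01135, listed by RefSeq as JUN-DT, starts 336 bp from a start of JUN, which encodes a serum-responsive AP-1 transcription factor. It gave from 0 to 0.625 ChIP CPM (median 0.430) and from 5.53 to 8.33 input CPM (median 6.48). LINC01004 on chromosome 7 (105012044 to 105014044) starts 1042 bp from KMT2E-AS1, at the gene of a chromatin regulator, with 0, 0, 3, 0, 2, 2 and 0 ChIP reads in the 7 libraries and from 5.59 to 7.95 input CPM.

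LINC00513 on chromosome 7 (130912508 to 130914508) starts 198 bp from LINC-PINT, a noncoding RNA induced by p53, and gave from 0 to 1.08 ChIP CPM and from 4.22 to 8.12 input CPM. LINC02939 on chromosome 22 lies 2417 bp from MIRLET7BHG, the host gene of let-7 microRNAs. LINC01990 on chromosome 3 overlapped no window of another kind. At every one of the 6 genes, all ChIP libraries lay below all inputs, which the choice by the largest called deficits makes likely.

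A list of 16 LINC genes described in fibroblasts, mesenchymal cells or cancer was set beside a list of 5 described in other tissues, taking for each gene the window with the most input reads. Of the first list, 15 genes had a window (LINC00473 had none under that symbol). ChIP was above input at 5, below at 6 and not called at 4, with a median log2 fold of 0.22 beside -0.04 for all windows. These shares were close to those of all windows (36.3% above and 38.6% below) and apart from those of all LINC windows (71.7% and 10.1%), a difference that was not tested and that the choice of the window with the most input reads can itself lower. Of the second list, 4 were above and 1 below, with a median of 1.01. The lists were chosen with earlier results of these data known, and their members are few.

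The genes below input in the first list were LINC00963 (log2 fold -2.17), LINC00467 (-1.39), LINC01503 (-1.17), LINC01116 (-1.05), LINC00941 (-1.02) and LINC00324 (-0.54, called in 11 of 15 fits that left out a library). LINC00941 gave from 1.31 to 3.24 ChIP CPM (median 2.22) and from 3.38 to 8.33 in input (median 5.89), with no overlap between assays. LINC01116, a neighbour of the HOXD cluster, gave from 1.08 to 4.37 ChIP CPM (median 1.88) and from 5.39 to 5.93 in input (median 5.58). The genes above input were LINC00520 (1.22), LINC01133 (1.14), LINC00707 (0.92), LINC01614 (0.86) and LINC00607 (0.41). The call of LINC00607 was lost with DESeq2 (adjusted p = 0.332) and without TMM (edgeR adjusted p = 0.0990), and in 7 of 15 fits that left out a library. LINC01614, described as a product of activated fibroblasts, gave from 7.31 to 9.76 ChIP CPM (median 8.72) and from 3.38 to 7.41 in input (median 5.26), so that the ranges of the assays overlapped slightly although the window was called.

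In the second list, LINC00261, an endodermal gene next to FOXA2, was highest with from 10.7 to 13.97 ChIP CPM (median 12.6) and from 3.65 to 5.91 in input (log2 fold 1.49 ± 0.15, edgeR adjusted p = 6.66e-18). LINC00458 (1.38) and LINC00678 (1.01), described in embryonic stem cells, were also above input, as was LINC00461 (0.53), which RefSeq lists as MIR9-2HG and which is expressed in the brain. The call of LINC00461 was lost with DESeq2 (adjusted p = 0.140). At LINC00461 the 40 windows differed, with 16 above and 5 below. LINC01405, a gene of striated muscle, was below input (-0.64 ± 0.23, adjusted p = 0.0080). None of the 205 windows of the first list or the 58 of the second that were tested between genotypes was called, nor any between sera. With 0.343% and 0.211% of all windows called, these counts are too small to tell the lists from the background.

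Peak regions gave a second view. Of LINC windows, 307 (3.00%) overlapped a deposited peak region, compared with 1.76% of the other windows. Since the peaks were called on ChIP reads, the ChIP level at these windows is a description, 2.67 ± 0.339 relative to all other windows (SD, n = 7), with 0.939 ± 0.0519 in input. Other windows with a peak region gave 2.45 ± 0.306 in ChIP on the same scale. Over libraries they ranged from 2.04 to 2.87 and LINC windows with a peak from 2.18 to 3.09, so the ranges overlapped. The 9910 LINC windows without a peak still gave 1.56 ± 0.0407, beside 0.974 for other windows without a peak. The 103 peak regions at LINC windows most often carried the deposited annotation of a promoter (30.1%, beside 15.2% at all windows that are not LINC). A long terminal repeat (LTR) was annotated in 24 cases (23.3%), a LINE in 7 and a SINE in 5. The annotation as LTR was given to 17.9% of 547 peak regions at windows of genes without a symbol. All windows that are not LINC, these included, had 1621 peak regions, of which 10.2% were annotated as LTR.

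Loss of LEO1 was examined next. The ChIP ratio of LINC windows was 1.55 ± 0.0301 in ΔLEO1 (SD, n = 3) and 1.63 ± 0.0354 in wild type (SD, n = 4), 0.956-fold. Each of the 3 ΔLEO1 libraries was under each of the 4 wild-type ones, and an exact permutation test (two-sided) returned p = 0.0571, the smallest value possible here (adjusted p = 0.143). The test took both sera together. With 1 ΔLEO1 library in 10% serum, they were not balanced between genotypes. In 0.1% serum alone ΔLEO1 was 0.963-fold of wild type (exact permutation p = 0.333, the smallest that 2 against 2 allow), and in 10% serum 0.958-fold with 1 ΔLEO1 library and no test. Divided by the input of the same label, ΔLEO1 was 0.976-fold of wild type over the 7 libraries (exact permutation p = 0.686) and 0.951-fold in 10% serum. In 0.1% serum the direction turned. The quotients were 1.54 and 1.58 in wild type and 1.57 and 1.64 in ΔLEO1, 1.03-fold higher in ΔLEO1 (exact permutation p = 0.667).

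The share of reads in peak regions, given above, was also lowest in the ΔLEO1 libraries of each serum, and its part in the difference was not tested. In input the ratio of LINC windows was 0.963 ± 0.0378 in ΔLEO1 and 0.968 ± 0.0651 in wild type (SD, n = 4 each, exact permutation p = 0.914). Within 0.1% serum the inputs differed in the same direction as ChIP, 0.940-fold, with both ΔLEO1 inputs below both wild-type inputs (exact permutation p = 0.333). On 18 of 22 autosomes the mean ChIP ratio of LINC windows within the chromosome was lower in ΔLEO1 in 0.1% serum, and on 11 neither ΔLEO1 library reached a wild-type one.

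Single LINC windows rarely differed between genotypes relative to the windows as a whole. TMM scaling removes a shift common to all windows, and spike-in scaling was not used. In 0.1% serum, 29 of 9293 LINC windows tested (0.312%) passed an edgeR adjusted p-value of 0.05, 2 higher and 27 lower in ΔLEO1. Of all 157921 windows tested, 0.343% passed, 0.0975% higher and 0.245% lower, so the share of LINC windows was close to that of all windows. The median log2 fold was -0.05 for LINC windows and 0.00 for all. The 27 lower windows belonged to 10 genes and as many separate stretches, since windows of a gene overlapped. LINC01115 alone accounted for 10 of them, LINC02223 for 4, and LINC00886 and LINC02691 for 3 each.

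**Figure D5:**
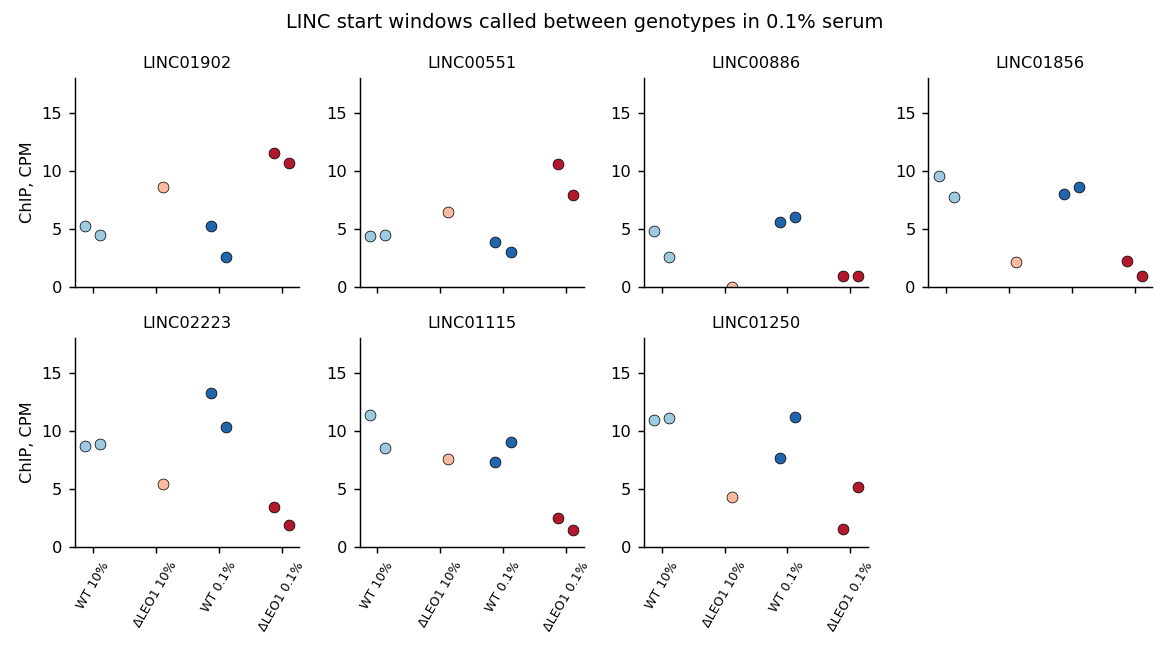
ChIP level in CPM (y axis) of the 7 named LINC windows called between genotypes in 0.1% serum, with a point for each library by genotype and serum (x axis, left for replicate A, right for B, 1 usable library for ΔLEO1 in 10% serum). LINC01902 and LINC00551 were higher in ΔLEO1 in 0.1% serum, and the other 5 were lower.

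LINC00886, on chromosome 3 (156816062 to 156818062), had the largest fall. Its window gave 5.58 and 6.02 CPM in wild type and 0.937 and 0.929 CPM in ΔLEO1 in 0.1% serum, which correspond to 16, 14, 3 and 2 reads. In 10% serum it gave 4.80 and 2.59 CPM in wild type and no read in ΔLEO1. The log2 fold in 0.1% serum was -1.93 ± 0.44 (SE, edgeR adjusted p = 0.0122). Its promoter was the richest in CG dinucleotides of those printed, and its ChIP level was below input in most libraries.

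LINC01856, on chromosome 2 (129922177 to 129924177), gave 8.02 and 8.60 CPM in wild type and 2.19 and 0.929 CPM in ΔLEO1 (log2 fold -1.88 ± 0.38, edgeR adjusted p = 0.00271). In 10% serum it gave 9.60 and 7.76 CPM in wild type and 2.16 CPM in ΔLEO1. ΔLEO1 was low in all 3 libraries. It was the only LINC window still called when the input difference between genotypes was subtracted, beside 0.0116% of all windows.

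LINC02223, on chromosome 5 (17801383 to 17803383) and 131812 bp from the nearest start of another kind, gave 13.3 and 10.3 CPM in wild type and 3.44 and 1.86 CPM in ΔLEO1 (-1.83 ± 0.33, edgeR adjusted p = 0.000831). Its input moved in the same direction (log2 fold -0.62). LINC01115, near the end of the short arm of chromosome 2 (867415 to 869415), gave 7.33 and 9.03 CPM in wild type and 2.50 and 1.39 CPM in ΔLEO1 (-1.65 ± 0.37, edgeR adjusted p = 0.0113), with -0.01 in input. LINC01250, also on the short arm of chromosome 2, gave 7.67 and 11.2 CPM in wild type and 1.56 and 5.11 CPM in ΔLEO1 (-1.41 ± 0.34, edgeR adjusted p = 0.0252), with -0.37 in input. The named windows had been chosen among those without overlap between the groups in 0.1% serum.

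Only LINC01902 and LINC00551 were called higher in ΔLEO1. LINC01902 on chromosome 18 gave 5.23 and 2.58 CPM in wild type and 11.6 and 10.7 CPM in ΔLEO1 (log2 fold 1.30 ± 0.31, edgeR adjusted p = 0.0263). LINC00551 on chromosome 13, listed by RefSeq as ARGLU1-DT, gave 3.84 and 3.009 CPM in wild type and 10.6 and 7.90 CPM in ΔLEO1 (1.26 ± 0.33, adjusted p = 0.0492). LINC02342, next by p-value and not called, gave 3.14 and 4.30 CPM in wild type and 6.87 and 13.5 CPM in ΔLEO1 (adjusted p = 0.0629).

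At the 27 windows that were lower in 0.1% serum, the single ΔLEO1 library in 10% serum gave a median log2 fold of -0.55 beside -1.49 in 0.1% serum, and the median of all LINC windows tested was -0.05 in either serum. The median log2 fold of their input in 0.1% serum was -0.01, beside -0.08 for all LINC windows. LINC01115, with 10 of the 27 overlapping windows, weighs heavily in this median. Of the 27, 16 had a negative log2 fold in input. Most LINC windows tested in input were negative as well, since only 38.6% had a positive fold. Over all windows the signs were nearly even. By sign in input, the 27 were thus not set apart from LINC windows as a whole. At 11 of the 27, both ΔLEO1 inputs in 0.1% serum lay below both wild-type inputs, a count not made for other windows. The genotype calls in ChIP depended on single libraries and on the tool. Of the called windows named, LINC02223 stayed called in 6 of 7 fits that left out a library, LINC01250 in 4, LINC00551 in 2 and the others in 3. Leaving out wild type 0.1% serum replicate A gave 0 called LINC windows, leaving out wild-type replicate B 4, and leaving out ΔLEO1 0.1% serum replicate A or B 4 or 5. Over all windows the calls fell in each of these fits as well, so the loss was not particular to LINC windows. DESeq2 called 0 LINC windows (82 at an unadjusted p under 0.05) and 0 of all windows. After input was subtracted edgeR called 1 LINC window, beside 0.0116% of all windows.

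In the inputs (background 0.0%) edgeR called 0 of 9866 LINC windows between genotypes in 0.1% serum. At an unadjusted p under 0.05 there were 646, or 6.55% beside 5.21% of all windows, and no other tool was run. The interaction of genotype and serum in ChIP gave 0 called LINC windows as well, with 512 (5.51%) at an unadjusted p under 0.05 beside 5.52% of all windows.

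Serum was compared last. The ChIP ratio was 1.57 ± 0.0342 in 0.1% serum (SD, n = 4) and 1.63 ± 0.0398 in 10% serum (SD, n = 3), 0.959-fold, and the groups overlapped (two-sided exact permutation p = 0.171, adjusted p = 0.214). In wild type alone it was 0.963-fold, with both libraries in 0.1% serum below both in 10% serum (exact permutation p = 0.333). The inputs moved the other way, from 0.941 ± 0.0497 in 10% serum to 0.991 ± 0.0393 in 0.1% serum (SD, n = 4 each, exact permutation p = 0.143, adjusted p = 0.214). In wild-type inputs the ratio was 1.12-fold higher in 0.1% serum and in ΔLEO1 inputs 0.995-fold. Divided by the input of the same label, ChIP was 0.889-fold in 0.1% serum over the 7 libraries, with the groups apart (exact permutation p = 0.0571, the smallest possible), and 0.863-fold in wild type alone (exact permutation p = 0.333, the smallest that 2 against 2 allow).

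Of 9293 LINC windows, 3 (0.0323%) were called between sera in wild type, beside 0.211% of all windows (0.0576% higher and 0.154% lower). LINC00598 on chromosome 13 rose from 5.68 and 4.44 CPM in 10% serum to 12.6 and 12.5 CPM in 0.1% serum (log2 fold 1.17 ± 0.30, edgeR adjusted p = 0.0477). In ΔLEO1 it gave 5.39 CPM in 10% serum and 7.81 and 9.76 CPM in 0.1% serum. LINC01102 on chromosome 2 fell from 17.5 and 14.8 to 8.72 and 5.59 CPM (-1.08 ± 0.26, adjusted p = 0.0248). LINC02808 on chromosome 1 fell from 19.2 and 14.4 to 5.93 and 10.7 CPM (-1.001 ± 0.25, adjusted p = 0.0426), a call lost without TMM (adjusted p = 0.0535).

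The next windows by p-value were not called. They were LINC00391 (log2 fold 1.20, edgeR adjusted p = 0.0556, and 0.0488 without TMM), which starts 4070 bp from SOX21, a neural transcription factor gene, LINC02552 (1.67, adjusted p = 0.0823) and LINC02853 (-1.10, adjusted p = 0.0503). Leaving out wild type 10% serum replicate B, or either wild-type library in 0.1% serum, gave 0 called LINC windows. DESeq2 called 0 as well (70 of 9293 at an unadjusted p under 0.05). Over all windows the calls fell in each of these fits too, and DESeq2 called 0. At an unadjusted p under 0.05 the main edgeR fit had 1014 LINC windows between sera (10.9%), beside 9.22% of all windows. In wild-type inputs 0 of 9866 LINC windows were called between sera by edgeR, beside 0.0227% of all windows (0.000482% higher and 0.0222% lower). At an unadjusted p under 0.05 there were 912 (9.24%, beside 10.1% of all windows), of which 739 were higher in 0.1% serum, and the median log2 fold of LINC windows was 0.13 beside 0.00 for all windows.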

How the data were processed

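ChIP and input DNA of 16 libraries were analysed, in 8 groups of 2 libraries named by the labels. The authors deposited raw read counts, whole numbers per library, over TSS windows reaching 1 kb to each side of a start and over merged peak regions. The submitters' processing notes name bcl2fastq 2.20.0.422, STAR 2.7.10a, HOMER and the builds hg38 and dm6, with no role for each. Duplicate handling and multi-mapping reads are not given in the sources used here, and spike-in scaling was not used, so a shift of the mark across all windows cannot be seen.

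Repeated windows were counted once, with the first row used. At 2399 windows the repeated rows differed, by at most 2 counts. CPM are reads per 1000000 reads over distinct autosomal windows. Ratios were compared by two-sided exact permutation tests over libraries in Python 3.11.15 (scipy 1.17.1). Counts of all distinct windows with a mean of at least 5 reads were tested with edgeR 4.0.16 in R 4.3.3 (quasi-likelihood F-test, TMM, prior count 2, 1 coefficient per group, Benjamini-Hochberg adjustment over all windows tested, threshold 0.05), with 15 libraries for ChIP over input and 7 ChIP libraries for genotype and serum. The prior count shrinks the log2 folds of edgeR, so they can be smaller than the CPM values show. The SE given with a log2 fold is the size of the fold divided by the square root of its F statistic. DESeq2 1.42.0 was an alternative. The code was tested on simulated data. Promoters on chromosome 8 were not considered for printing.

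The members, gene lists and tests were chosen with earlier results of these data known. Named windows, 1 per gene, were the 8 largest called folds above and 6 below input with at least 10 reads in every library of the higher assay. Between genotypes and sera they were up to 5 called windows each way without overlap between groups, filled up to 3 by p-value, and in addition the 5 highest ChIP and input levels and the fixed lists. The pair of wild-type inputs in 0.1% serum could be one library by their window counts (ratio of chi-square to its degrees of freedom 1.00, p = 0.0726), though not by their peak counts (1.10, p = 1.26e-16), and stayed 2 libraries.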

Additional observations from a re-analysis of the deposited data

How the results depend on the processing

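Every alternative kept the ChIP excess of LINC windows over input and its side of the threshold, from 1.12-fold (against windows of genes without a symbol) to 2.05-fold (median window). Leaving out single libraries gave log2 differences from 0.71 to 0.74, and the replicate block, with ChIP and input paired by label, 0.73 (exact permutation p = 0.0156). The count of LINC windows called between ChIP and input, 8065, ranged from 7699 to 8130 without single libraries and was 8068 with the replicate block and 6987 with DESeq2.

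The log2 genotype difference in ChIP turned to 0.0358 in 0.1% serum after division by input, an alternative chosen after seeing the data. It shrank to -0.00595 for genes with a promoter sequence (exact permutation p = 0.743, added later), was -0.10 for the median window (exact permutation p = 0.229), and ranged from -0.08 to -0.05 without single libraries. The serum difference in ChIP grew to -0.17 after division by input (exact permutation p = 0.0571, added later), turned to 0.0219 for genes with a promoter sequence, also added later, and ranged from -0.08 to -0.05 without single libraries. The genotype difference in input, near 0, turned to 0.0758 within 10% serum, to 0.0205 for genes with a promoter sequence and to 0.0194 with the wild-type 0.1% serum inputs counted as 1 library, and ranged from -0.0461 to 0.0253 without single libraries. The serum difference in input turned to -0.00722 within ΔLEO1 and ranged from 0.05 to 0.11 without single libraries. The causes were not tested.

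Of the genotype calls, 29 LINC windows became 0 with DESeq2, 0 with all 8 ChIP libraries (261 of 9210 at an unadjusted p under 0.05) and 1 with input subtracted. They ranged from 0 to 34 without single libraries. The replicate block gave 34. Over all windows it called 163 higher and 435 lower, beside 154 and 387 in the main fit. Over all windows, DESeq2 and the fit of all 8 ChIP libraries called 0 as well. Of the serum calls, 3 became 8 with filterByExpr, 1 without a filter, 0 with DESeq2 and 8 with the replicate block. They became 0 with all 8 ChIP libraries (222 of 9210 at an unadjusted p under 0.05) and 1 with only the 4 libraries compared. Without single libraries they ranged from 0 to 7. Without TMM 2 rose and 1 fell. Over all windows the serum calls were 91 higher and 243 lower in the main fit. They were 104 and 248 with filterByExpr, 78 and 199 without a filter, and 103 and 280 with the replicate block. With only the 4 libraries compared they were 71 and 199, and without TMM 104 and 213. Between sera DESeq2 called 0 of all windows, and the fit of all 8 ChIP libraries called 0 higher and 4 lower. With the replicate block LINC00551 was no longer called between genotypes (edgeR adjusted p = 0.0503), and LINC00391 (0.0401) and LINC02853 (0.0395) were called between sera. The deviations of same-lettered LINC windows correlated between -0.09 and 0.10. At so few reads per window the deviations hold mostly sampling noise, so the correlations cannot show whether the letters pair the samples. ΔLEO1 in 10% serum had 1 usable ChIP library. With a median of 13 to 23 ChIP reads per window, small differences at single windows were not detectable.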
